A study of Mus musculus with 9 samples.

Results

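The genes examined here are those that lie just proximal of the duplicated segment of mouse chromosome 16 in the Dp1Tyb strain, on its centromeric side, and that the duplication does not include. They were taken by position: every listed gene of any type whose start in the GENCODE M21 annotation (build GRCm38) is between 56400000 and 75540513 on chromosome 16, with a mean normalised read count of at least 5 over all cultures, except *Col8a1*. No comparison of genotypes entered this choice, but *Gm26937* reached the mean of 5 only through the Dp1Tyb cultures. The rule gave 32 of the 43629 genes in the table, of which 29 code for protein and 3 are of other types. Of the 112 genes listed in this 19.1 Mb, 65 had no count in any culture and 14 more had counts but a mean below 5. The mean nearest below that limit was 2.15 normalised counts (*Tmem45a2*), and the lowest above it were 12.1 (*Gm26937*) and 13.3 (*Htr1f*).

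The question was whether raised expression extends past the breakpoint into neighbouring genes at normal copy number. Mouse embryonic fibroblasts (MEFs), connective tissue cells grown from dissociated embryos, came from littermate embryos (E14.5), one culture per embryo and grown for a few passages, and their mRNA was sequenced. The groups were 4 WT cultures and 5 Dp1Tyb cultures, the second from embryos that carry a duplication of the chromosome 16 segment orthologous to human chromosome 21, here taken from the start of *Lipi* at 75540514 to 97962622. Both groups carry the strain label C57BL/6J.129P2, and no transgene or treatment was used. The label does not say whether both genotypes have the same strain's sequence next to the duplication, and this was not tested. Each culture was a mixed population of primary cells rather than a clone.

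A segmental duplication adds a copy of each gene it spans, and mRNA from such genes usually rises in rough proportion to copy number. Genes beyond its ends keep their normal copy number, but neighbouring genes can share enhancers and folded chromatin domains, so a rearrangement can in principle alter genes that it does not span. The stretch proximal of the Dp1Tyb duplication holds the large guidance receptor genes *Robo1*, *Robo2* and *Epha3*, a cluster of olfactory receptor genes, and many genes for housekeeping functions of mitochondria, membranes and the nucleus.

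All 8 fibroblast marker genes examined were above 3 counts in every culture, and total counts per culture were between 24804539 and 30009361. Dp1Tyb replicate 2 had the lowest summed fibroblast marker level, 22017 CPM (counts scaled to the total of the culture), against 30305 to 48066 CPM in WT and 38452 to 47030 CPM in the other Dp1Tyb cultures. The summed level of 5 glial markers did not overlap between the genotypes, with 28.1 to 60.5 CPM in WT and 8.83 to 27.8 CPM in Dp1Tyb, and 4 of the 5 were above 3 counts in every culture. The 6 muscle markers summed to 6.96 to 16.4 CPM in WT and 13.6 to 38.6 CPM in Dp1Tyb, with *Myod1*, *Myog* and *Actc1* at 0 in some culture, and 6 macrophage markers to 59.5 to 217 CPM and 14.1 to 313 CPM. Of the 4 glial markers tested, 3 had an unadjusted p below 0.05 (edgeR), as had 2 of the 2 muscle markers tested. Over all genes tested the share was 3.13%. In every marker list, 0 genes had an adjusted p below 0.05 (edgeR). The summed neuron, epithelium and endothelium markers overlapped between the genotypes. The part of these cells in the results below was not tested. In cultures of mixed cells, fewer cells of a type and less RNA per cell cannot be told apart.

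The 32 proximal genes showed no shift as a group, while the median of the duplicated genes beside them was higher by about the added copy. Their median log2 fold change in Dp1Tyb vs WT MEFs was 0.03, which is 1.02-fold, with 17 genes above 0 and 15 below. Of all genes tested, 51.0% were above 0. For the 89 tested genes of the duplicated region the median was 0.58 (1.5-fold), with 83 above 0, and for all 14567 genes tested it was 0.0027. On chromosome 16 farther proximal, the 329 tested genes had a median of 0.0086. Distal of the duplication a single gene with enough counts was tested, *B230307C23Rik*, at 0.0079.

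**Figure D1:**
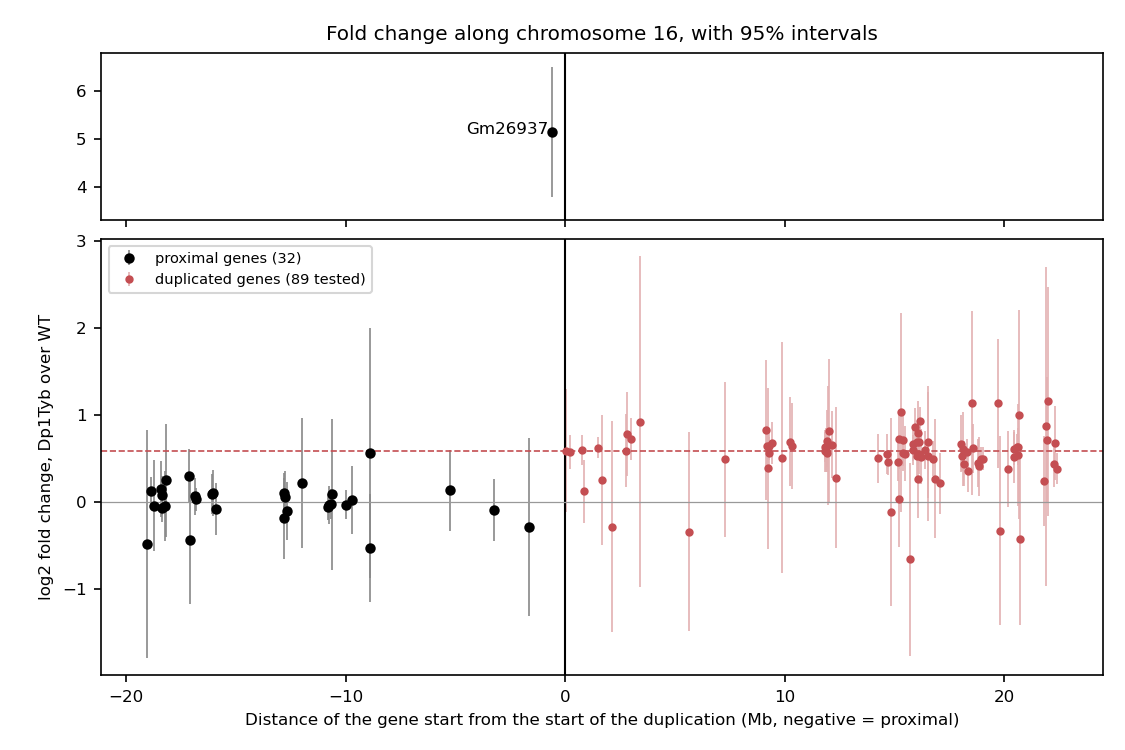
Log2 fold change of Dp1Tyb over WT with its 95% interval (vertical axis, in 2 panels) against the distance of the gene start from the start of the duplication in Mb (horizontal axis, negative values proximal), for the 32 proximal genes in black and 89 duplicated genes in red. The dashed line marks 1.5-fold. Black points to the left of the vertical line sit around 0, except *Gm26937* in the upper panel, whose fitted value depends on the prior count since WT cultures were at the floor, and red points sit around the dashed line.

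In the edgeR fit, with p-values adjusted over all 14567 genes, 1 of the 32 genes was a differentially expressed gene (DEG, adjusted p below 0.05). This was *Gm26937*, which was higher in Dp1Tyb MEFs, and 0 of the 32 were lower. Over all genes tested 0.165% were called higher and 0.0% lower. At an unadjusted p below 0.05 the counts were again 1 higher and 0 lower, with *Gm26937* the gene concerned, against 1.36% and 1.77% of all genes tested, or 3.13% in either direction. Outside the duplicated region, 2 of 14406 tested genes were called higher, *Gm26937* among them, and 0 lower. At an unadjusted p below 0.05 (edgeR), 136 of those genes were higher and 258 lower. Of the 32 genes, DESeq2 also called *Gm26937* alone. In the duplicated region 22 of 89 tested genes were DEGs, all higher, and 6 of the 20 within its first 10 Mb. That number rested on single cultures. It was 12 without WT replicate 1, Dp1Tyb replicate 1 or Dp1Tyb replicate 3, 7 without WT replicate 4 or Dp1Tyb replicate 4, and 2 without WT replicate 2, WT replicate 3 or Dp1Tyb replicate 5. The median of the duplicated genes stayed between 0.57 and 0.62 in the same fits.

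The other 31 genes had fold changes between -0.53 on the log2 scale (*Cadm2*) and 0.56 (*1700010K23Rik*), with a lowest unadjusted p of 0.0546 and adjusted p values of 1.0 in the edgeR test. A p that misses the threshold does not show that levels were equal. The 95% intervals were therefore set against a rise of 1.5-fold, the change that an added copy would bring. These genes have no added copy, and an interval below 1.5-fold can still hold a smaller rise. The median half-width of the intervals of the 32 genes was 0.33 on the log2 scale. The interval lay below a 1.5-fold rise for 23 of the 31 and reached it for 8. Most of the 23 were far from the duplication. They were 20 of the 25 genes beyond 10 Mb, 2 of the 4 from 5 to 10 Mb and 1 of the 2 from 1 to 5 Mb. Over all genes tested 76.9% of intervals lay below a 1.5-fold rise, and in the duplicated region 6 of 89 did.

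One value per culture gave the same picture. The median over the 32 genes of the log2 ratio to each gene's WT mean averaged 0.0066 ± 0.045 over the WT cultures (SD, n = 4) and 0.012 ± 0.056 over the Dp1Tyb cultures (SD, n = 5). For the duplicated genes it was 0.0046 ± 0.036 in WT and 0.55 ± 0.035 in Dp1Tyb MEFs. The sample descriptions carry one leading number for WT replicate 1 and Dp1Tyb replicate 1 and another for the other 7. These were read here as a first and a second set of cultures, though the labels do not say what the number marks. Within each set, the difference between the genotypes was taken gene by gene. Its median over the 32 genes was -0.0027 within the first set and 0.0056 within the second, and the first rests on 1 culture per genotype.

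**Figure D2:**
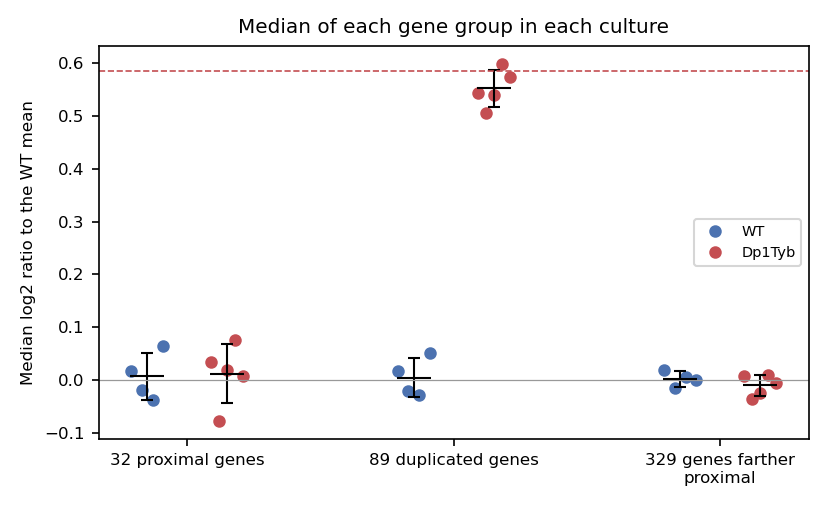
Median over genes of the log2 ratio to each gene's WT mean (vertical axis) for 3 groups of chromosome 16 genes (horizontal axis), one point per culture, WT in blue and Dp1Tyb in red, with black bars for the mean and SD and a dashed line at 1.5-fold. The proximal genes lie near 0 in both genotypes, and the duplicated genes lie near the dashed line in all 5 Dp1Tyb cultures.

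The nearest of the 32 genes to the duplication was the DEG, *Gm26937* (ENSMUSG00000098143), an unspliced processed pseudogene on the plus strand of chromosome 16 from 74961240 to 74962247. Processed pseudogenes are copies of an mRNA that were written back into the genome, and this one is a copy of the mRNA of *Gapdh*, which encodes a glycolytic enzyme and lies on chromosome 6. Its 1008 bases were aligned with a *Gapdh* transcript of GENCODE M21, and 873 of 1012 aligned columns were identical (86.3%). The pair differed at 5 to 21 columns in each stretch of 100 bases of the pseudogene, the length of a read, with a median of 13. The stretches with the fewest and, without gaps, the most differences show how far a read from one could be told from the other. They are printed with differing bases in capitals, the first at chr16:74961813-74961912 (plus strand, 5 differences) and the second at chr16:74961386-74961485 (plus strand, 19 differences).
Gm26937, fewest: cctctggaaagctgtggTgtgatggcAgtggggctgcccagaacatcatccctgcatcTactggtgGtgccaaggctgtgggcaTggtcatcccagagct
Gapdh, fewest: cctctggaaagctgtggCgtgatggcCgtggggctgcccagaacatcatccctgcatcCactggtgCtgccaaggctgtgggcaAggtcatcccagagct
Gm26937, most: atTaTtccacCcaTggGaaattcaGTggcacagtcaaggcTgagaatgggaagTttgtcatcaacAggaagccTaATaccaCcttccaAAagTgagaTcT
Gapdh, most: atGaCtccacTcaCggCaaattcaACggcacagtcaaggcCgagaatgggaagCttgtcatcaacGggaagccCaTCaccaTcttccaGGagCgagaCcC

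*Gm26937* had 0, 0, 1 and 1 counts in the 4 WT cultures. In the 5 Dp1Tyb cultures it had 29, 29, 15, 14 and 17 counts. The genotypes did not overlap, and every WT culture was at or below the floor of 3 counts. Against that floor in each WT culture, *Gm26937* was at least 7.14-fold higher in Dp1Tyb MEFs (adjusted p = 0.012, edgeR). A two-sided exact permutation test gave p = 0.0079, the lowest that 4 against 5 cultures allow. It was the single gene of the 32 whose normalised counts did not overlap between genotypes, against 0.686% of all genes tested that did not overlap and were higher and 0.673% that were lower. Outside the duplicated region, 53 of 14406 tested genes did not overlap and were higher, and 98 did not overlap and were lower. Only the Dp1Tyb cultures brought *Gm26937* past the filter on low counts and past the mean that chose the 32 genes. Its place among them therefore depends on the group in which it was high. Its p-values and lack of overlap are thus not independent of how it was chosen. At a mean of 12.1 normalised counts it was the lowest of the 32.

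The call on *Gm26937* was near its threshold. The adjusted p of the edgeR test was 0.0503 without Dp1Tyb replicate 5, 0.0632 without WT replicate 2, 0.0709 without WT replicate 3 and 0.0519 without WT replicate 4. Within the second set of cultures alone it was 0.14. The fold change stayed above 0 in each of these fits, as it had to with every WT culture at or below the floor.

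Reads of *Gapdh* and its many copies can be assigned to one another, so values of *Gm26937* are uncertain, although reads that aligned to several places had been discarded before counting. Among all transcripts searched, the closest to *Gm26937* was another *Gapdh*-like pseudogene, *Gm2606*, with 86.8% identity over 1008 bases. No stretch of 100 bases of *Gm26937* was found within 2 differences of a transcript of another gene, and the closest was 4 differences away. Only annotated transcripts could be searched, and the genome of these embryos was not analysed here. Whether the sequence at *Gm26937* differs between the genotypes was not tested. The reads kept for *Gapdh* itself gave 2149 ± 747 normalised counts over WT cultures (SD, n = 4). They gave 2204 ± 681 over Dp1Tyb cultures (SD, n = 5), a log2 fold change of 0.04. These are not its full level, since reads that aligned to several places were discarded. *Gapdh* kept 1523 to 3120 raw counts per culture, and its pseudogene *Gm12033* 7200 to 16579. Besides *Gm26937*, 254 listed genes had a transcript at least 80% identical to *Gapdh* over at least 800 bases. Of these, 14 were tested, 0 were DEGs and 0 had an unadjusted p below 0.05 (edgeR). Their log2 fold changes were between -0.18 and 0.39, and 0 of them lie in the duplicated region.

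Between the end of *Robo2* and the duplication, a distance of 1.13 Mb, 2 genes were listed, and *Gm26937* was the one with counts. *Lipi*, at the edge of the duplication itself, had 1 count over the 9 cultures. The first 5 tested genes inside it were *Rbm11*, an RNA-binding protein, *Hspa13*, a heat shock protein 70 family chaperone, *Nrip1*, a nuclear receptor corepressor, the processed pseudogene *Gm9843* and *Usp25*, a deubiquitinase. *Hspa13* had 2019 ± 203 normalised counts (SD) in WT and 3005 ± 240 in Dp1Tyb MEFs (log2 fold change 0.57, adjusted p = 0.0476, edgeR). *Nrip1* had 703 ± 45.7 and 1066 ± 80.3 (log2 fold change 0.60, adjusted p = 0.0183, edgeR). *Usp25* had 1282 ± 49.2 and 1974 ± 24.2 (log2 fold change 0.62, adjusted p = 0.00338, edgeR). The genotypes did not overlap in any of these 3 genes. They overlapped in *Gm9843*, with 238 ± 22.1 and 260 ± 50.2 (log2 fold change 0.12), and in *Rbm11*, with 12.8 ± 4.09 and 19.4 ± 6.17 (0.59), and both had an adjusted p of 1.0 (edgeR). When single cultures were left out, *Usp25* kept its call each time. *Nrip1* lost it without any 1 of the WT cultures and without Dp1Tyb replicate 4 or 5, with adjusted p values of 0.0548 to 0.0977, and *Hspa13* lost it without any 1 culture other than Dp1Tyb replicate 2, with 0.0539 to 0.224 (edgeR).

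The genotypes overlapped in the first protein-coding genes on the proximal side. *Robo2* encodes a receptor for Slit proteins, secreted ligands that steer axons and migrating cells, and it ends 1.13 Mb from the duplication. It had 1896, 687, 716 and 765 normalised counts in WT cultures. The Dp1Tyb cultures had 1319, 258, 1013, 961 and 615. The highest value was that of WT replicate 1 and the lowest that of Dp1Tyb replicate 2, and the genotypes overlapped. The log2 fold change was -0.29 ± 0.46 (SE), with a 95% interval of -1.31 to 0.73 that includes a 1.5-fold rise. Without WT replicate 1 it was 0.21, and without both WT replicate 1 and Dp1Tyb replicate 2, a choice made after seeing the data, it was 0.44 with an adjusted p of 0.534 (edgeR).

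*Robo1*, which encodes a second Slit receptor and starts 3.23 Mb from the duplication, was measured more tightly. Its normalised counts were 2697, 2364, 1855 and 1737 in WT cultures. Dp1Tyb cultures had 2652, 1736, 2005, 1859 and 1923. Both genotypes covered almost the same range. The log2 fold change was -0.09 ± 0.16 (SE), and the 95% interval of -0.45 to 0.27 excluded a 1.5-fold rise. Of 14 other genes of the Slit and Robo pathway, on other chromosomes, 13 were tested and 0 were DEGs or had an unadjusted p below 0.05. Their log2 fold changes ran from -0.41 (*Robo3*) to 0.22 (*Enah*, an actin regulator), and the ligand gene *Slit2* was at -0.0007.

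**Figure D3:**
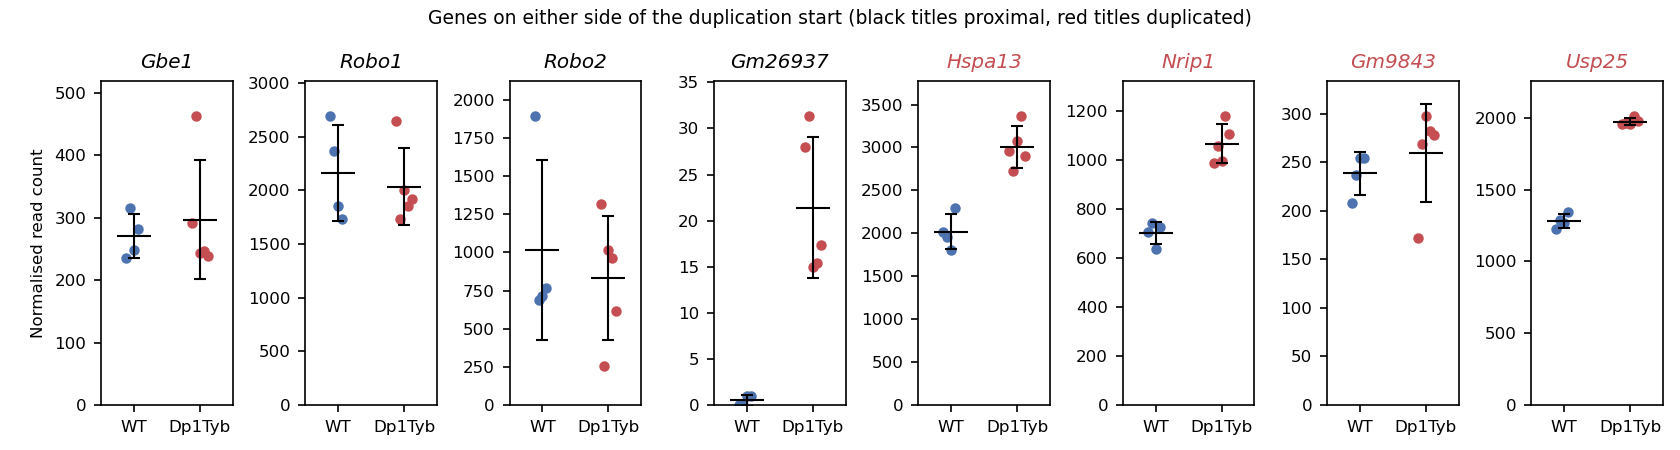
Normalised read count (vertical axis, starting at 0 in each panel) of 4 proximal genes and 4 duplicated genes by genotype, one point per culture, WT in blue and Dp1Tyb in red, with black bars for the mean and SD. *Gbe1*, *Robo1*, *Robo2* and the duplicated pseudogene *Gm9843* overlap between genotypes, while *Gm26937*, *Hspa13*, *Nrip1* and *Usp25* do not.

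*Gbe1* encodes the glycogen branching enzyme and starts 5.23 Mb from the duplication. Normalised counts were 236, 315, 248 and 282 in WT and 291, 463, 244, 247 and 239 in Dp1Tyb cultures. Dp1Tyb replicate 2 was the highest, and the others overlapped with WT. The log2 fold change of 0.13 ± 0.21 (SE) became -0.08 without that culture.

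*Cadm2*, an adhesion molecule of the immunoglobulin superfamily best known from synapses, and the antisense gene *1700010K23Rik* overlap on opposite strands, starting 8.89 and 8.88 Mb from the duplication. *Cadm2* was at 135, 127, 79.4 and 63.1 normalised counts in WT and at 87.8, 68.2, 71.98, 80.4 and 43.8 in Dp1Tyb cultures. All 5 Dp1Tyb cultures were below the WT mean of 101, but the genotypes overlapped, and the log2 fold change of -0.53 ± 0.28 (SE) had an unadjusted p of 0.0881 and an adjusted p of 1.0 (edgeR). *1700010K23Rik* was at 8.31, 23.8, 39.7 and 11.0 normalised counts in WT and at 31.85, 5.41, 61.0, 36.3 and 17.3 in Dp1Tyb cultures. With so few reads its interval, -0.88 to 2.00 on the log2 scale, excluded neither a fall nor a rise. The kit kept strand, but the strand setting of the counting step is not given in the sources used here, so reads of this pair could be mixed. The same holds for the other pairs that overlap on opposite strands, *Tomm70a* and *Nit2*, *Cmss1* and *Filip1l*, *Dcbld2* and *St3gal6*, and *Riox2* and *Crybg3*.

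*Vgll3*, a cofactor of TEAD transcription factors, had normalised counts of 2080, 3495, 2786 and 2771 in WT and 2821, 3776, 2423, 2869 and 2264 in Dp1Tyb cultures. Both genotypes spread by close to the same amount, and the log2 fold change was 0.02 ± 0.18 (SE). *Chmp2b*, a subunit of the ESCRT-III complex that cuts membrane necks, had 2102, 1999, 1770 and 1952 in WT and 1745, 1852, 2119, 1950 and 1900 in Dp1Tyb cultures. Its log2 fold change of -0.03 came with a 95% interval of -0.20 to 0.14 that excluded a 1.5-fold rise.

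Across the whole stretch, fold change bore no graded relation to distance. Few of the genes lie near the duplication, so a local gradient could have been missed. The only gene within 1 Mb was *Gm26937*. The 2 genes from 1 to 5 Mb had a median log2 fold change of -0.19, the 4 from 5 to 10 Mb one of 0.08 and the 25 beyond 10 Mb one of 0.03. Across the 31 genes other than *Gm26937*, Pearson's r of log2 fold change with distance was 0.08 and Spearman's rho 0.10, and with *Gm26937* they were -0.41 and 0.004. These are correlations across genes measured in the same cultures, and genes are not independent replicates.

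The most abundant protein-coding transcripts among the 32 genes, compared per length as RPKM (reads per kilobase of exon, scaled to the total count), were *Pros1* at 56.6, *Tfg* at 51.2, *Chmp2b* at 37.9, *Cldnd1* at 25.8 and *Filip1l* at 21.6. *Pros1* encodes protein S, an anticoagulant cofactor that is also a ligand of TAM receptors. It had 5255, 6291, 7144 and 6774 normalised counts in WT and 6056, 4149, 6090, 6989 and 6323 in Dp1Tyb cultures, with Dp1Tyb replicate 2 the lowest (log2 fold change -0.10, 95% interval -0.44 to 0.23). *Tfg*, needed for export from the endoplasmic reticulum, had 2686, 3187, 2854 and 3117 in WT and 3131, 3561, 3126, 3185 and 3125 in Dp1Tyb cultures (0.12, interval -0.04 to 0.29). *Cldnd1*, a claudin-domain membrane protein, was the steadiest, with 1745, 1694, 1678 and 1800 in WT and 1639, 1853, 1743, 1854 and 1749 in Dp1Tyb cultures (0.03, interval -0.10 to 0.16). For all of these 3 genes the interval excluded a 1.5-fold rise.

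By function, 0 DEGs were found in each group of proximal genes that could be named. The 3 guidance receptors had a median log2 fold change of -0.09. *Epha3*, a receptor tyrosine kinase for ephrin-A ligands, was at 1852, 1021, 1473 and 1971 normalised counts in WT and at 1857, 672, 2122, 2429 and 2126 in Dp1Tyb cultures. Dp1Tyb replicate 2 was the lowest of all and the next lowest was WT replicate 2, and the log2 fold change of 0.22 had an interval of -0.52 to 0.97. The 2 cilium genes, *Arl6*, whose protein recruits the BBSome coat, and *Arl13b*, a ciliary membrane GTPase, were at -0.08 and 0.06, and both intervals excluded a 1.5-fold rise.

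The 5 genes for matrix, adhesion and cytoskeleton had a median of -0.10 and the widest range of the named groups. *Abi3bp*, an extracellular matrix protein, had 4976, 1106, 1275 and 1668 normalised counts in WT and 1702, 318, 2602, 1976 and 1490 in Dp1Tyb cultures. It was 15.6-fold higher in WT replicate 1 than in Dp1Tyb replicate 2, and its log2 fold change of -0.48 ± 0.58 (SE) turned to 0.27 without WT replicate 1. *Filip1l*, a filamin A-interacting protein, ran the opposite way, with 1473, 4044, 2599 and 2975 in WT and 2877, 4979, 2264, 3243 and 3111 in Dp1Tyb cultures, lowest in WT replicate 1 and highest in Dp1Tyb replicate 2. Its log2 fold change was 0.25 (interval -0.40 to 0.90), and it overlaps *Cmss1* on the other strand.

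*Dcbld2*, a transmembrane protein of the neuropilin-like type, had the lowest p of the 31, and it overlaps *St3gal6* on the other strand. Its normalised counts were 2402, 3151, 2992 and 3075 in WT and 3236, 4767, 3108, 3462 and 3334 in Dp1Tyb cultures. All 5 Dp1Tyb cultures were above the WT mean of 2905, and Dp1Tyb replicate 3 was below WT replicate 2. The log2 fold change was 0.30 ± 0.14 (SE), with an interval of -0.0073 to 0.61, an unadjusted p of 0.0546 and an adjusted p of 1.0 (edgeR). The exact permutation test of this gene on its own gave p = 0.0317, two-sided and not adjusted for the 32 genes. Without Dp1Tyb replicate 2 the fold change was 0.18.

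The 6 genes for mitochondrion and metabolism had a median log2 fold change of 0.09. *Tomm70a*, an import receptor of the outer mitochondrial membrane, was at 0.15, *Nit2*, an omega-amidase, at 0.07, *Cpox*, an enzyme of haem synthesis, at 0.06 and *Nsun3*, a methyltransferase of a mitochondrial tRNA, at 0.10, and all 4 intervals excluded a 1.5-fold rise. *St3gal6*, a sialyltransferase, was at -0.44 ± 0.33 (SE), with 43.8 to 147 normalised counts in Dp1Tyb and 90.6 to 168 in WT cultures. The 5 genes for membrane traffic and other membrane proteins had a median of -0.03 and the 5 of the nucleus one of -0.02. All 10 intervals excluded a 1.5-fold rise. Among the nuclear genes, *Riox2*, an oxygenase that acts on histones and a ribosomal protein, was at 0.09, *Cggbp1*, which binds CGG repeats, at -0.02 and *Zfp654*, a zinc finger protein, at -0.04.

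Of the 6 genes in no group, *Crybg3* was at 0.10, *4930453N24Rik* at -0.06, the processed pseudogene *Gm9816* at -0.19 and *Htr1f*, a serotonin receptor with 7.57 to 26.4 normalised counts, at 0.09 on the log2 scale. The 25 olfactory receptor genes of the stretch, which serve smell in sensory neurons, were barely detected at this depth, with a count for 2 of them and 3 counts in all over both genotypes.

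Over all 9 cultures of both genotypes, some of these genes ranged widely and others little. The highest culture was over 2-fold above the lowest in 9 of the 31 with counts in every culture, and 34.1% of all genes tested passed the same limit. After *Abi3bp* and *1700010K23Rik*, at 15.6-fold and 11.3-fold, came *Robo2* at 7.36-fold, *St3gal6* at 3.84-fold and *Epha3* at 3.62-fold. Within WT alone and within Dp1Tyb alone, *Abi3bp* ranged 4.50-fold and 8.18-fold and *Robo2* 2.76-fold and 5.12-fold. At the other end, 14 genes stayed within 1.5-fold over all 9 cultures, among them *Cldnd1* (1.13-fold) and *Cggbp1* (1.19-fold).

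Most of the extremes came from 2 cultures. Dp1Tyb replicate 2 was the lowest of the 9 cultures for 11 of the 32 genes and the highest for 9, and WT replicate 1 was the lowest for 9 and the highest for 6. In Dp1Tyb replicate 2, 11 of the 32 genes (34.4%) were over 1.5-fold from the median of all cultures, 5 above and 6 below, against 23.1% of all genes tested. With both cultures left out, a choice made after seeing the data, the median log2 fold change of the 32 genes was 0.04, 1 was a DEG, and 26 intervals lay below a 1.5-fold rise.

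**Figure D4:**
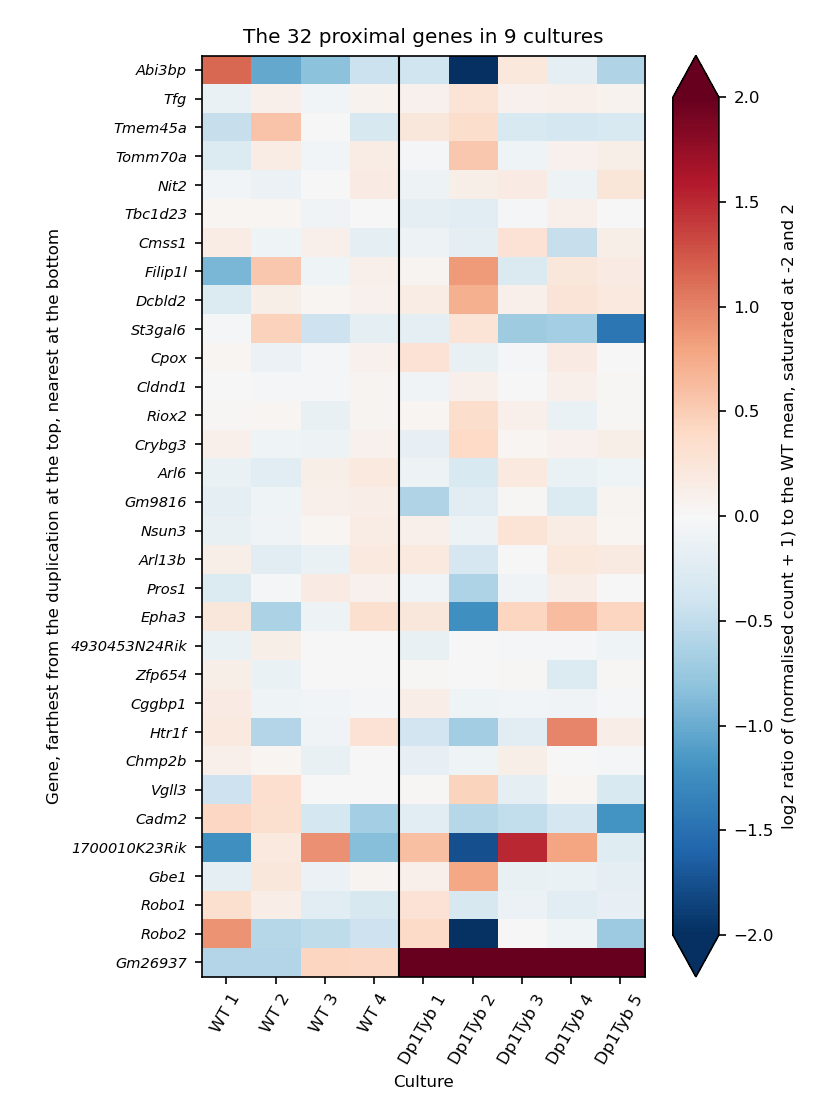
Log2 ratio of normalised count plus 1 to the WT mean (colour, saturated at -2 and 2) for the 32 proximal genes (rows, in order along the chromosome, nearest to the duplication at the bottom) in the 9 cultures (columns). The bottom row, *Gm26937*, separates the genotypes, and Dp1Tyb replicate 2 and WT replicate 1 hold the strongest colours in *Abi3bp*, *Filip1l* and *Robo2*.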

How the data were processed

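RNA sequencing of 9 MEF cultures, 4 WT and 5 Dp1Tyb, was analysed. Per the study's methods and processing notes, reads were trimmed with Trim Galore, mapped to GRCm38 with TopHat2 2.0.12, kept if they aligned to a single place and counted per gene with HTSeq. The authors deposited a table of raw counts and a table of normalised counts, which are signal values scaled by the DESeq2 size factor of the culture. A deposited table of the authors' own fold changes and p-values was not used. The authors' normalised counts served only to choose the genes, through the mean over cultures. The raw counts entered the tests, and the normalised counts given for single cultures and genotypes are raw counts scaled here by edgeR's TMM factors.

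All 14567 genes that passed edgeR's filter on low counts were fitted with edgeR 4.0.16 in R 4.3.3 (TMM, quasi-likelihood test, two-sided, Benjamini-Hochberg, no covariate). Intervals are 95%, and log2 ratios per culture used a pseudocount of 1. RPKM used the summed exon length. Transcripts were compared with BLAST 2.17.0 and aligned with Biopython 1.88. In the table, 42462 of 43629 gene identifiers matched GENCODE M21. With 24804539 to 30009361 counts per culture, 3 counts were taken as the floor, and floors cover counting error only. The fit was tested on simulated data.

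Values in every culture are given for called genes, for the 8 nearest to the duplication, for genes whose genotypes do not overlap, and for the 5 most abundant protein-coding genes. *Abi3bp*, *Epha3* and *Dcbld2* were added after their values were seen. The genes and lists were chosen with earlier results of these data known. The alternatives tried were other normalisations, filters, covariates, thresholds and tools, a wider or narrower choice of genes, and leaving out cultures.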

Additional observations from a re-analysis of the deposited data

Results flagged for a closer look

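The 32 genes give 64 groups of 4 or 5 cultures, and in 9 of them 1 culture stood apart from the others of its genotype by Dixon's 95% criterion. Chance flags about 1 in 20 such groups, or 3.2 here. Dp1Tyb replicate 2 accounted for 4 of the 9 and was high for *Tfg* (3561 normalised counts), *Tomm70a* (4024), *Dcbld2* (4767) and *Gbe1* (463.1). WT replicate 1 was high for *Abi3bp* (4976) and *Robo2* (1896). The other 3 were WT replicate 3, low for *Riox2* (520.4), Dp1Tyb replicate 4, low for *Zfp654* (231.2), and Dp1Tyb replicate 1, high for *Cggbp1* (2795). The genes were measured in the same cultures, so these flags are not independent of each other.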

How the results depend on the processing

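The number of the 32 genes called lower was 0 in all 24 alternatives, and the median log2 fold change was between -0.0188 and 0.0474. It was -0.0188 with at least 10 counts in every culture, a filter that removes *Gm26937*, *Htr1f* and *1700010K23Rik*. Without *Gm26937* alone the median was 0.0245 in the main fit. It was -0.0041 to 0.0474 when 1 culture was left out. The number called higher fell from 1 to 0 where *Gm26937* was removed (at least 10 counts, a mean of at least 50, protein-coding genes only), at an adjusted p below 0.01, in the second culture set alone and with the replicate block, where its adjusted p was 0.104 (edgeR). The block took the calls over all genes from 24 to 0, those on *Hspa13*, *Nrip1* and *Usp25* among them (adjusted p 0.0947, 0.0908 and 0.0736). Deviations of same-numbered cultures correlated at 0.259, 0.741, 0.031 and 0.378, and 4 of 8 cultures correlated best with their own number, so the numbers were not taken as pairs. Leaving out 1 culture gave 0 to 1 called. The number of duplicated genes called, 22, became 39 with DESeq2, 14 without a filter, 1 in the second set alone and 0 with the block, and 2 to 23 when 1 culture was left out. The number with an interval below a 1.5-fold rise was 22 to 27 in all alternatives but the nearest 10 Mb, where it was 3. That stretch holds fewer genes and a smaller share of such intervals, 2 of 4 from 5 to 10 Mb, 1 of 2 from 1 to 5 Mb and 0 of 1 nearer. Beyond 10 Mb it was 20 of 25. Including *Col8a1*, or genes with a mean of at least 1, moved no count past 1.5 times. Low counts limit *Gm26937*, *Htr1f* and *1700010K23Rik*. The spread between cultures limits *1700010K23Rik* too, and *Abi3bp*, *Robo2* and *Epha3*.

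For the other 31 genes, 0 of 556 alternative values were called (lowest adjusted p 0.493, edgeR or DESeq2), and 15 genes changed sign somewhere. With WT replicate 1 and Dp1Tyb replicate 2 both left out, chosen after seeing the data, log2 fold changes turned to 0.529 (*Abi3bp*), -0.051 (*Tomm70a*), 0.0459 (*Cmss1*), -0.15 (*Filip1l*), 0.0019 (*Zfp654*), 0.0543 (*Cggbp1*), 0.0193 (*Chmp2b*), -0.21 (*Vgll3*), -0.14 (*Gbe1*), 0.0919 (*Robo1*) and 0.44 (*Robo2*). In the second set alone they turned to 0.24 (*Abi3bp*), 0.0215 (*Cmss1*), 0.0361 (*Chmp2b*) and -0.091 (*Vgll3*), and with the replicate block to 0.0361 (*Tmem45a*) and -0.0085 (*Htr1f*). Leaving out 1 culture gave -0.72 to 0.27 for *Abi3bp*, -0.17 to 0.21 for *Tmem45a*, -0.147 to 0.0388 for *Cmss1*, -0.15 to 0.0039 for *Arl6*, -0.0030 to 0.14 for *Arl13b*, -0.0764 to 0.0157 for *Zfp654*, -0.0582 to 0.0384 for *Cggbp1*, -0.28 to 0.23 for *Htr1f*, -0.0768 to 0.0066 for *Chmp2b*, -0.10 to 0.15 for *Vgll3*, -0.0823 to 0.216 for *Gbe1*, -0.196 to 0.0385 for *Robo1* and -0.50 to 0.21 for *Robo2*. The cause of these turns was not tested.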
